A study of Mus musculus with 24 samples.

Results

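Hepatocyte growth factor, the ligands of the epidermal growth factor (EGF) receptor family and their receptors were followed in the inner medulla of the mouse kidney after cisplatin. The set was named gene by gene: Hgf and its receptor gene Met, the receptor genes Egfr and Erbb3, and the ligand genes Hbegf, Areg, Ereg, Tgfa, Btc and Nrg1. All 10 were found by symbol among the 55416 gene identifiers of the count table, 9 of them had enough counts to be tested, and Areg did not. The groups were male cisplatin (6 libraries), male saline (6), female cisplatin (5) and female saline (7), all C57BL/6 mice of 9 to 10 weeks. Cisplatin, a platinum drug that binds DNA and injures kidney tubules, was given once into the peritoneum at 15 mg/kg in 100 µl, and saline was the vehicle. Inner medullae were frozen 72 h after the injection, and poly(A) RNA was sequenced. The labels do not say that each library is 1 mouse, so p-values measure the spread between libraries.

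HGF is secreted as an inactive chain, mainly by mesenchymal and endothelial cells, is cleaved by serine proteases, and binds the tyrosine kinase MET on epithelial cells. The EGF family ligands are membrane-bound precursors that metalloproteases release. Heparin-binding EGF-like growth factor (Hbegf), amphiregulin (Areg), epiregulin (Ereg), transforming growth factor alpha (Tgfa) and betacellulin (Btc) bind the EGF receptor, and neuregulin 1 (Nrg1) binds ERBB3 and ERBB4. ERBB3 has little kinase activity of its own and signals in pairs with other members, above all ERBB2. In the kidney both systems are known for their part in tubule repair.

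In the GENCODE M21 annotation (GRCm38), Hgf lies at chr5:16553495-16620152 on the plus strand, Met at chr6:17463800-17573980 (plus), Egfr at chr11:16752203-16918158 (plus) and Erbb3 at chr10:128567523-128589652 (minus). Tgfa lies at chr6:86195223-86275719 (plus) and Nrg1 at chr8:31814551-32884029 (minus). Ereg (chr5:91074622-91093646, plus), Areg (chr5:91139599-91148432, plus) and Btc (chr5:91357261-91402994, minus) lie within 376 kb of one another together with the epigen gene Epgn (chr5:91027464-91035215, plus). Promoter windows of 300 bases (250 before to 50 after the RefSeq start, build GRCm38.p6) were at hand for Hgf, Met, Egfr, Areg, Tgfa and Btc. Those of Hgf, with 2 start sites, are shown because this gene had the largest change of the set in males, and those of Met and Areg because they are the most and the least abundant of the set per length. Capitals mark 4 motifs searched on both strands: the TATA box TATAAA, the cyclic AMP response element TGACGTCA, the AP-1 site TGANTCA and the GC box GGGCGG.
Hgf upstream start, chr5:16553245-16553544, plus strand: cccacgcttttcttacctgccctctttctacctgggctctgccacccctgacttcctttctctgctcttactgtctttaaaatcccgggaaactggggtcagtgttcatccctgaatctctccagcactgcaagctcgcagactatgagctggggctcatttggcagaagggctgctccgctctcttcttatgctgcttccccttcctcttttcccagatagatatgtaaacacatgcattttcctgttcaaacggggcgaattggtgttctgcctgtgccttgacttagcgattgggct
Hgf downstream start, chr5:16553651-16553950, plus strand: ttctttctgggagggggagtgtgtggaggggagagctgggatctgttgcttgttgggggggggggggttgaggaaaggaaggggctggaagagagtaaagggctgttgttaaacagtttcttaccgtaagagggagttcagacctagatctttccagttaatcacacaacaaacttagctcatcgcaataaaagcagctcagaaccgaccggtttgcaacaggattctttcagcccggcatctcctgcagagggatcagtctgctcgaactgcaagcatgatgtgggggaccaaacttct
Met, chr6:17463707-17464006, plus strand: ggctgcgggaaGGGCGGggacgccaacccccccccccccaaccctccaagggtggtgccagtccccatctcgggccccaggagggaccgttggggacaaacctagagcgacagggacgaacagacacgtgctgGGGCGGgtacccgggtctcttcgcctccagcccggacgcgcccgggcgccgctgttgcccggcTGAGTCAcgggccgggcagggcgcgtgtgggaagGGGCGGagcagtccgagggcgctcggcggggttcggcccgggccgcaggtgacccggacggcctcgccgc
Areg, chr5:91139349-91139648, plus strand: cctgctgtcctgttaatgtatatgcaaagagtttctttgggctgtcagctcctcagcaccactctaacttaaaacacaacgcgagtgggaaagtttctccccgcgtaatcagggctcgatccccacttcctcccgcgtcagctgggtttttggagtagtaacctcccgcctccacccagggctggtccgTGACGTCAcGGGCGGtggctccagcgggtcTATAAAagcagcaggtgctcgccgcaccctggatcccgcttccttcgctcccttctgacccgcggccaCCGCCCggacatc

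Neither Hgf window held any of the 4 motifs, and both had 51.3% G and C. The Met window, with 75.7% G and C, held 3 GC boxes and an AP-1 match that begins 54 bases before the start. The Areg window held a TATA box (at -31 from the start), a cyclic AMP response element (at -61) and 2 GC boxes. Of the 32851 promoter windows of the table, 13.6% held the TATA box, 1.79% the cyclic AMP response element, 7.81% the AP-1 letters and 35.7% a GC box. No match overlapped another, and the matches describe the letters only.

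Total counts per library ranged from 18084242 to 27279102. Lcn2, a transcript of injured tubules, was at 213 to 6582 CPM (counts normalised to library size) in male cisplatin and at 57.7 to 67.2 CPM in male saline libraries. In females it was at 111 to 3525 CPM under cisplatin, with replicates 2 and 3 at 111 and 122 CPM, against 49.3 to 129 CPM under saline. Aqp2, the principal cell water channel gene of the collecting duct, was at 3564.5 to 8892 CPM over the libraries, a level that does not tell the inner medulla from other segments of the duct. Thick ascending limb transcripts of the outer medulla were also present: the summed CPM of 6 markers ran from 1700 to 7814 in male cisplatin, 2613 to 13671 in male saline, 3649 to 9339 in female cisplatin and 966 to 11945 in female saline libraries.

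In the saline libraries the 3 receptor genes had the highest mean levels of the set. Levels between genes were compared as CPM per kb of exon, with exon lengths of the GENCODE M21 annotation, which need not be those used for counting. Met came first, at 41.8 ± 4.35 CPM per kb (SD, n = 13 saline libraries), and its range did not overlap that of any other gene of the set. Erbb3 (17.4 ± 1.31) and Egfr (16.5 ± 2.41) followed on this scale, and their ranges overlapped. Hbegf, at 8.13 ± 1.93 CPM per kb, was the most abundant ligand, and its range overlapped that of Egfr. Tgfa (4.26 ± 0.613) and Btc (3.33 ± 1.48) came next with overlapping ranges. Hgf stood at 0.490 ± 0.194 CPM per kb and overlapped Nrg1 at 0.350 ± 0.123. Ereg (0.149 ± 0.135) and Areg (0.0406 ± 0.0507) were lowest, at 0 to 49 counts per library for Ereg and 0 to 4 for Areg.

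**Figure D1:**
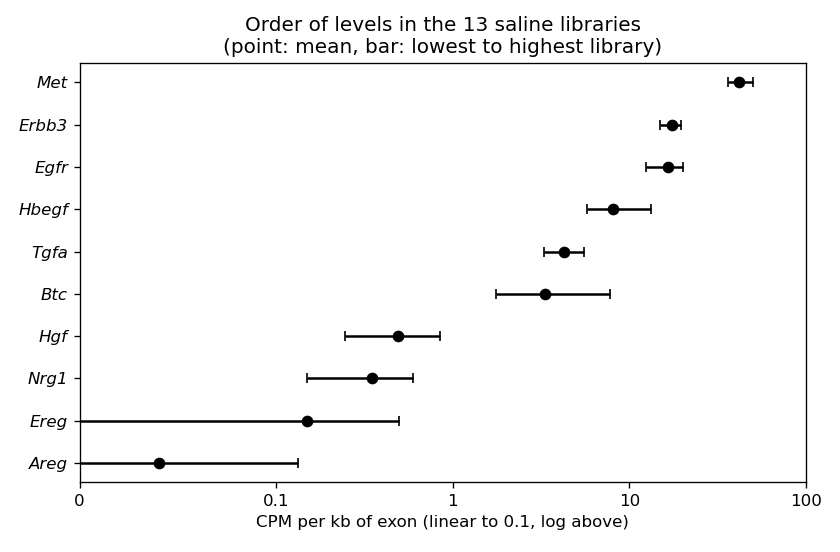
Mean level of each gene in the 13 saline libraries as CPM per kb of exon (linear to 0.1, logarithmic above), with bars from the lowest to the highest library. Met stands above the others at 41.8 CPM per kb, and Hgf, Nrg1, Ereg and Areg lie below 1.

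Hgf fell in males after cisplatin. Its level in males had a minimum of 0.213, a median of 0.707 and a maximum of 1.53 CPM under cisplatin, against 2.27, 3.80 and 6.08 CPM under saline. The highest male cisplatin library lay below the lowest male saline library, so the 2 groups did not overlap. The underlying counts were 4 to 42 per library under cisplatin and 54 to 116 under saline. Mean levels were 0.847 ± 0.505 CPM in male cisplatin and 3.91 ± 1.59 CPM in male saline libraries (SD, n = 6 each). The log2 fold change was -2.16 ± 0.38 (SE), which is 0.224 of the saline level, with an adjusted p of 0.000985 in edgeR's quasi-likelihood test with Benjamini-Hochberg adjustment over 18005 genes. Of those genes, 20.7% passed in this comparison (7.54% lower, 13.2% higher), and 5.93% had male groups that did not overlap (2.48% lower, 3.45% higher). Of the 9 tested genes of the set, Hgf alone had such groups in males, and 0 had them in females, against 0.850% of all genes (0.339% lower, 0.511% higher).

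In females Hgf was at 1.29, 1.55, 2.27, 0.729 and 0.835 CPM in cisplatin libraries 1 to 5, against a minimum of 1.76, a median of 2.79 and a maximum of 5.52 CPM under saline. Cisplatin library 3 lay above the lowest saline library, and the other 4 lay below all of them. The means were 1.34 ± 0.619 CPM under cisplatin (SD, n = 5) and 3.19 ± 1.22 CPM under saline (SD, n = 7). The log2 fold change of -1.26 ± 0.38 did not pass in edgeR's test (adjusted p of 0.160, unadjusted 0.00287), and it passed in DESeq2 (adjusted p of 0.0447, range over the alternatives 0.0447 to 0.587). The female minus male difference of the cisplatin effects was 0.90 ± 0.53 on the log2 scale (edgeR adjusted p of 0.943).

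**Figure D2:**
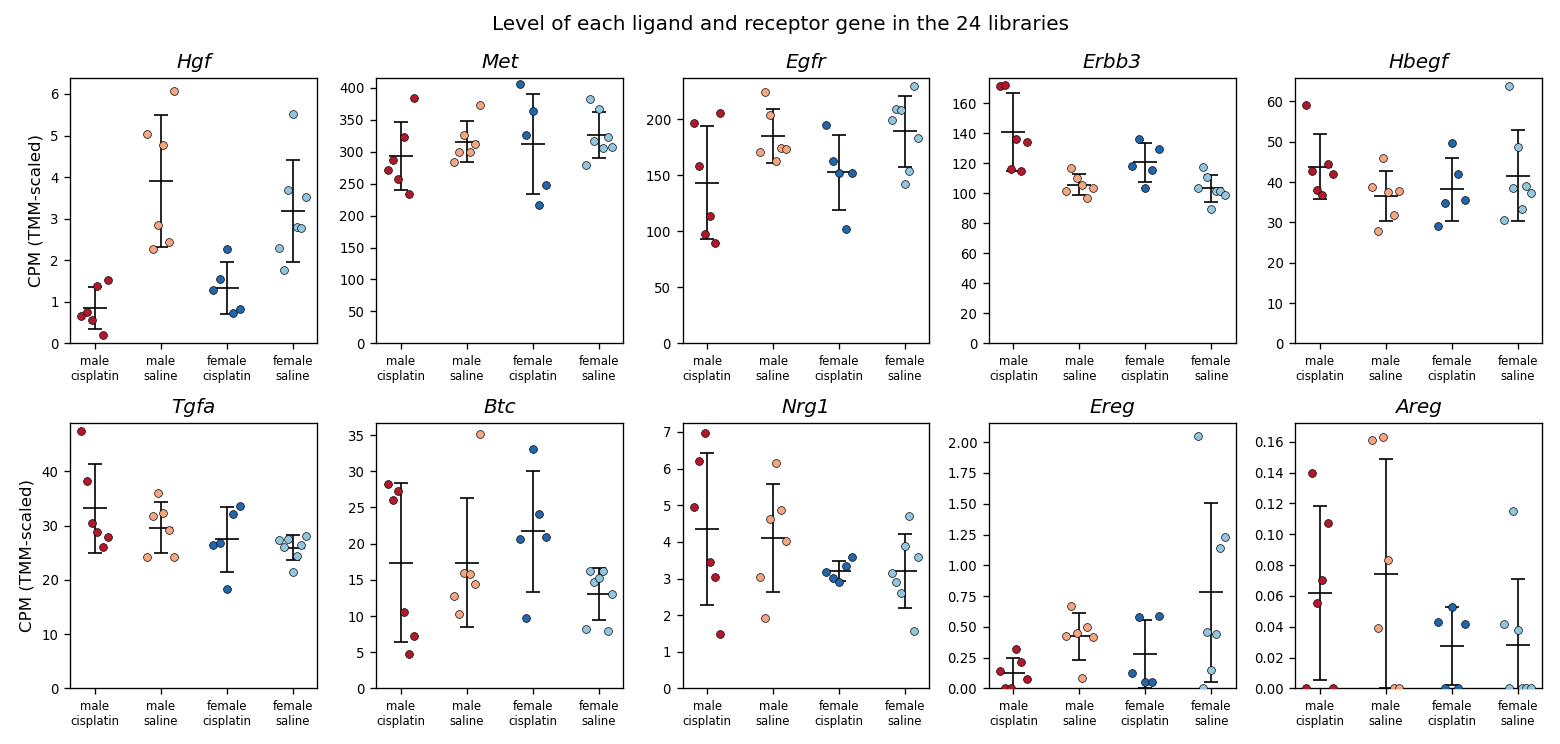
CPM of each of the 10 genes in each library (points) by group, with mean and SD (bars, cut at 0), on separate linear axes. Hgf is at 0.213 to 1.53 CPM in male cisplatin and at 2.27 to 6.08 CPM in male saline libraries, while the groups overlap for the other 9 genes in males and for all 10 in females.

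Most fibroblast markers were also lower in males. Of the 10 interstitial fibroblast markers, 7 fell and 0 rose in males, where 7.54% of all genes were lower and 13.2% higher. Their median log2 fold change was -0.99 against 0.02 over all genes tested. In females 0 of 10 passed in edgeR's test (0 in DESeq2) and their median was -0.45. The 2 at an unadjusted p under 0.05 in females were both higher, Dcn at 0.66 ± 0.29 and Lum at 1.31 ± 0.61 on the log2 scale. In males Dcn (0.22 ± 0.30) and Lum (0.48 ± 0.71) were also positive and did not pass. Pdgfra, which encodes a receptor that marks interstitial fibroblasts, averaged 111 ± 68.3 CPM in male cisplatin and 289 ± 19.1 CPM in male saline libraries. The summed level of the 10 markers ran from 124 to 502 CPM in male cisplatin and from 574 to 708 CPM in male saline libraries, and from 268 to 609 CPM in female cisplatin and 316 to 765 CPM in female saline libraries. None of these markers was at 0 throughout a group. In RNA of whole tissue, fewer cells of a type and less RNA per cell cannot be told apart. With the mean log2 CPM of these markers as a covariate, a choice made after seeing the data, the log2 fold change of Hgf in males was -1.25 and did not pass (adjusted p of 0.326, range over the alternatives 6.53e-07 to 0.326). Only 48 of the 18005 genes passed in males in that fit. The score itself did not overlap between the male groups (2.85 to 4.21 in male cisplatin, 4.23 to 4.73 in male saline libraries). Score and treatment were thus closely tied in males, and the fit took a single slope of the score over all 24 libraries. The part of each in the Hgf values was not tested.

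Across cisplatin libraries the lowest Hgf levels stood beside high Lcn2. Male cisplatin libraries 1, 2, 3 and 5 held 0.667, 0.747, 0.552 and 0.213 CPM of Hgf and 4017, 6582, 2575 and 2468 CPM of Lcn2. Male cisplatin library 4 held 1.37 CPM of Hgf and 1263 CPM of Lcn2. Male cisplatin library 6, with the lowest Lcn2 of its group (213 CPM), had the highest Hgf of its group (1.53 CPM). Female cisplatin libraries 2 and 3, whose Lcn2 lay within the saline range, had 1.55 and 2.27 CPM of Hgf, and libraries 4 and 5, with 3525 and 2095 CPM of Lcn2, had 0.729 and 0.835 CPM. Female cisplatin library 1 stood between them, with 1.29 CPM of Hgf and 545 CPM of Lcn2. The endothelial markers, of a cell type that also makes HGF, counted 5 lower and 0 higher of 10 in males, where 7.54% of all genes were lower and 13.2% higher. In females 0 of these 10 markers passed in edgeR's test (1 at an unadjusted p under 0.05, 0 in DESeq2). Their summed level ran from 990 to 3068 CPM in male cisplatin and from 2559 to 3009 CPM in male saline libraries, and their part in the Hgf values was not tested.

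**Figure D3:**
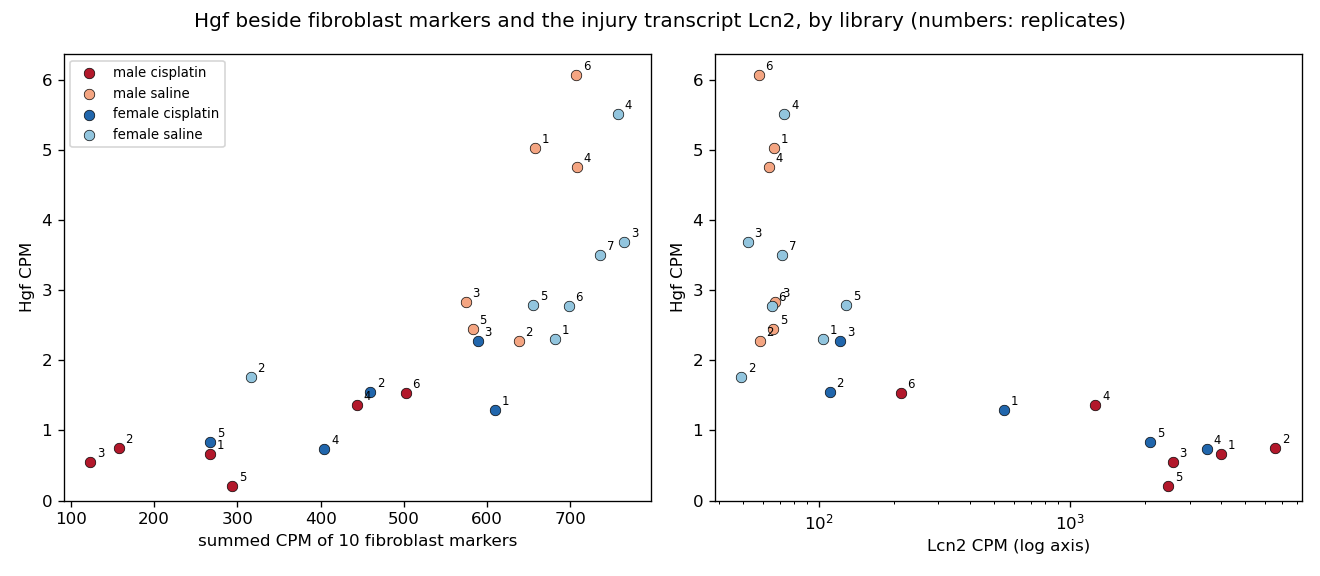
Hgf level (CPM, vertical axis) in each library against the summed CPM of 10 fibroblast markers (left) and against Lcn2 CPM on a log axis (right). Numbers give the replicate, and colours the 4 groups. Saline libraries sit at 1.76 to 6.08 CPM of Hgf, and 10 of the cisplatin libraries sit at or below 1.55 CPM.

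By Pearson correlation of log2 CPM over the 24 libraries, the genes most like Hgf were Gdf7 (r of 0.947), a BMP family ligand gene, Cald1 (0.931), which encodes the actin-binding protein caldesmon, and Cdh11 (0.929), a cadherin gene of mesenchymal cells. These correlations hold the difference between the treatments, and the genes share libraries and depth. Cdh11 fell in males by 1.79 ± 0.31 on the log2 scale (edgeR adjusted p of 0.000949). In females it had -1.28 ± 0.32 (adjusted p of 0.0929).

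Met, the receptor of HGF, did not pass in either sex. Its level in males had a minimum of 234, a median of 279 and a maximum of 383 CPM under cisplatin, against 284, 305 and 373 CPM under saline. In females it was at 405, 326, 364, 217 and 248 CPM in cisplatin libraries 1 to 5, against a range of 278 to 383 CPM under saline. The groups overlapped in both sexes. The log2 fold change was -0.11 ± 0.13 in males (edgeR adjusted p of 0.585) and -0.06 ± 0.14 in females (0.854).

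Of the genes around HGF, those of its activation changed in both directions in males. The list held 9 genes of HGF cleavage and of the related ligand MSP (Mst1) and its receptor. Of these 4 rose and 2 fell (edgeR adjusted p under 0.05), where 13.2% of all genes were higher and 7.54% lower. St14, which encodes the HGF-cleaving protease matriptase, rose to 583 ± 165 CPM in male cisplatin libraries, against 366 ± 22.8 CPM in male saline libraries (log2 fold change 0.67 ± 0.15, edgeR adjusted p of 0.00520). Spint1 and Spint2, genes of 2 inhibitors of such proteases, were chosen after their values were seen, and rose by 0.44 ± 0.11 and 0.52 ± 0.14 on the log2 scale. Mst1 rose by 1.02 ± 0.34 at a level of 2.81 ± 1.65 CPM in male cisplatin and 1.38 ± 0.453 CPM in male saline libraries. The plasminogen activator genes Plat (-1.20 ± 0.37) and Plau (-1.14 ± 0.41) fell, with edgeR adjusted p of 0.0265 and 0.0488. The male groups of Plau overlapped, at 176 to 419 CPM under cisplatin and 175 to 856 CPM under saline. When a tubule marker score (mean log2 CPM of the markers of proximal tubule and thick ascending limb, centred on its mean over the libraries) was added to the model, 1 of the 9 passed, and without male cisplatin replicate 2 or 5, 3 passed.

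Erbb3 was the other gene of the set that changed in males, where it rose. Its level had a minimum of 115, a median of 135 and a maximum of 172 CPM in male cisplatin libraries, against 96.8, 104 and 117 CPM in male saline libraries. Male cisplatin 3 and 5, at 116 and 115 CPM, lay just below male saline 2 at 117 CPM, and the other 4 lay above all saline libraries. The means were 141 ± 25.8 CPM under cisplatin and 106 ± 7.01 CPM under saline (SD, n = 6 each). The log2 fold change was 0.41 ± 0.10 (edgeR adjusted p of 0.00740). With the tubule marker score in the model it was 0.28 and did not pass (adjusted p of 0.0657), and with the fibroblast marker score it was 0.27 (adjusted p of 0.518). The other 31 of 33 alternatives passed, from 0.00201 upwards. Of 9 urothelial markers, 3 rose and 0 fell in males, where 13.2% of all genes were higher and 7.54% lower. Krt20, among these 3, was also listed as a marker of tubular injury. It averaged only 0.480 CPM in male cisplatin and 0.0841 CPM in male saline libraries. The summed level of the 9 ran from 580 to 1743 CPM (median 623) in male cisplatin and from 510 to 632 CPM (median 549) in male saline libraries. Psca alone averaged 623 CPM in male cisplatin and 458 CPM in male saline libraries, and it did not pass (edgeR adjusted p of 0.212). The summed principal cell markers ran from 5320 to 10773 CPM in male cisplatin and from 8366 to 9898 CPM in male saline libraries. Aqp2 alone averaged 6711 and 6551 CPM in these groups, so the sum mostly follows that gene. Of the 10 principal cell markers, 1 rose and 2 fell in males. The part of these cells in the Erbb3 values was not tested.

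In females Erbb3 was at 118, 136, 103, 116 and 130 CPM in cisplatin libraries 1 to 5, against a minimum of 89.7, a median of 101 and a maximum of 118 CPM under saline. The groups overlapped, although cisplatin libraries 2 and 5 lay above all saline libraries and cisplatin library 1 lay level with the highest of them (118.1 against 117.9 CPM). The log2 fold change of 0.22 ± 0.10 did not pass (edgeR adjusted p of 0.309, unadjusted 0.0368). The genes most like Erbb3 over the 24 libraries were Aldh5a1 (r of 0.869), Agrn (0.850), which encodes the basement membrane proteoglycan agrin, and Mast3 (0.837). Agrn rose in males by 0.63 ± 0.15 on the log2 scale (edgeR adjusted p of 0.00753).

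Egfr had lower means after cisplatin in both sexes and did not pass. In males it had a minimum of 89.7, a median of 136 and a maximum of 206 CPM under cisplatin, against 163, 174 and 224 CPM under saline. In females it was at 194.5, 162, 152, 102 and 152 CPM in cisplatin libraries 1 to 5, against a range of 142 to 229 CPM under saline. Male cisplatin libraries 2 to 5 lay below all male saline libraries, and libraries 1 and 6 lay among them. The log2 fold changes were -0.37 ± 0.18 in males (edgeR adjusted p of 0.154) and -0.31 ± 0.19 in females (0.437). Without male cisplatin replicate 6 the male value was -0.50 and passed (adjusted p of 0.0403, range over the alternatives 0.0403 to 0.592). The opposite-strand gene Egfros overlaps Egfr and held 1.39% as many counts, and the strand setting of the counting is not known here, so shared reads could not be assigned. The same limit applies to Ereg, where the opposite-strand gene Gm19610 held 6.25% as many counts, and to Tgfa (Gm43917, 0.152%).

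The ligands of the EGF receptor differed in how much they varied between libraries. Hbegf, the heparin-binding ligand (chr18:36504927-36515805, minus), had a minimum of 36.7, a median of 42.3 and a maximum of 59.1 CPM in male cisplatin, against 27.9, 37.6 and 46.0 CPM in male saline libraries. It was at 29.1, 34.7, 49.6, 41.9 and 35.6 CPM in female cisplatin libraries 1 to 5, against 30.6 to 63.9 CPM in female saline libraries. The groups overlapped widely, with log2 fold changes of 0.26 ± 0.16 in males and -0.12 ± 0.17 in females (edgeR adjusted p of 0.260 and 0.751). Tgfa had a range of 26.1 to 47.4 CPM in male cisplatin, 24.2 to 36.1 CPM in male saline, 18.4 to 33.6 CPM in female cisplatin and 21.5 to 28.1 CPM in female saline libraries. Its log2 fold changes were 0.16 ± 0.15 and 0.08 ± 0.15 (edgeR adjusted p of 0.448 and 0.821). Male cisplatin 1 and 2, with 47.4 and 38.3 CPM of Tgfa, stood above every male saline library.

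Btc spread more than these. Male cisplatin libraries 1 to 3 held 26.1 to 28.3 CPM, and libraries 4 to 6 held 10.5, 4.70 and 7.29 CPM. Male saline libraries ran from 10.3 to 35.1 CPM, with replicate 6 at 35.1 and the other 5 at or below 15.9 CPM. The log2 fold change in males was -0.0014 with an SE of 0.38. In females Btc was at 20.6, 9.76, 33.1, 24.1 and 20.9 CPM in cisplatin libraries 1 to 5, against 7.97 to 16.2 CPM under saline. Cisplatin libraries 1, 3, 4 and 5 lay above all 7 saline libraries, and the log2 fold change of 0.73 ± 0.38 did not pass (edgeR adjusted p of 0.368).

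Nrg1, the ligand of ERBB3, was at 1.49 to 6.96 CPM in male cisplatin, 1.92 to 6.14 CPM in male saline, 2.90 to 3.59 CPM in female cisplatin and 1.56 to 4.71 CPM in female saline libraries. Its log2 fold changes were 0.08 ± 0.30 in males and 0.01 ± 0.31 in females (edgeR adjusted p of 0.878 and 0.993). Ereg had 0 to 9 counts in male cisplatin, 2 to 17 in male saline, 1 to 14 in female cisplatin and 0 to 49 in female saline libraries. Its log2 fold changes of -1.67 ± 0.83 and -1.45 ± 0.75 did not pass (edgeR adjusted p of 0.147 and 0.367), and these counts leave the errors wide. Female saline 1, 6 and 7 held 49, 30 and 30 counts of Ereg, and no library of the other groups held more than 17. Areg had at most 4 counts in any library and 0 in 10 of the 24. A count of 0 allows up to 3 counts, or 0.133 CPM at the mean depth, counting error only. With no filter on low counts Areg had log2 fold changes of -0.29 ± 0.88 in males and -0.08 ± 0.99 in females (edgeR adjusted p of 0.929 and 1.0), errors that leave differences of that size unresolved. Of the neighbouring ligand genes on chromosome 5, Btc had 8961 counts over all libraries, Ereg 240, Epgn 33 and Areg 26.

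**Figure D4:**
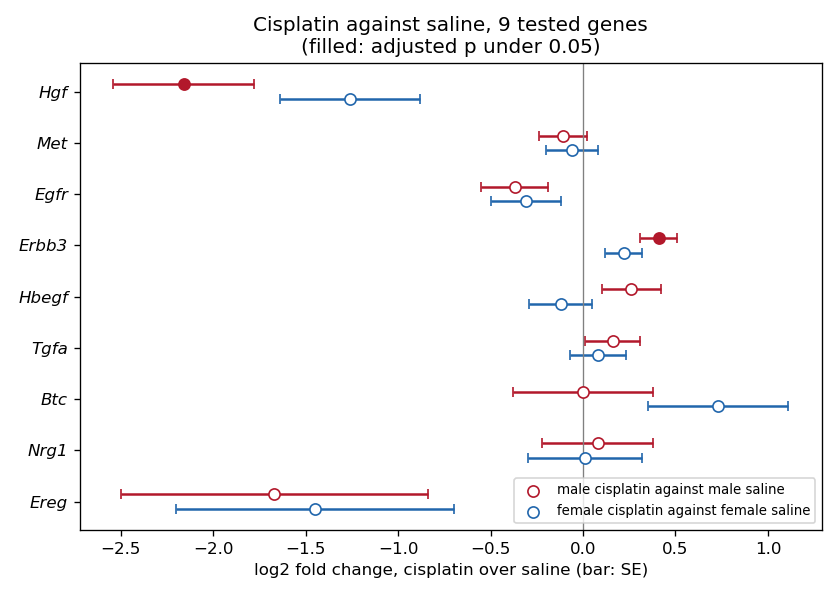
Log2 fold change of cisplatin over saline with SE (bars) for the 9 tested genes, in males and females, with filled points at an adjusted p under 0.05. Hgf lies at -2.16 in males and -1.26 in females, Erbb3 at 0.41 and 0.22, and only the 2 male values are filled.

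Of the 9 tested genes, 1 rose and 1 fell in males, where 20.7% of all genes passed, so the share of the set is close to that background. In females 0 passed in edgeR's test against a background of 0.272% (0.200% higher, 0.0722% lower). At an unadjusted p under 0.05 there were 2, Hgf and Erbb3, against 2664 of the 18005 genes, and 1, Hgf, passed in DESeq2. The median log2 fold change of the 9 was 0.00 in males and -0.06 in females, against 0.02 and 0.01 over all genes tested. For the difference of the cisplatin effects between the sexes, 0 of the 9 and 0.0% of all genes passed in edgeR's test, with 0 of the 9 at an unadjusted p under 0.05 and 0 in DESeq2. For female against male under saline 0 of the 9 passed (background 0.189%, of which 0.0611% higher and 0.128% lower; 0 at an unadjusted p under 0.05, 0 in DESeq2), with log2 fold changes from -0.41 (Btc) to 0.88 (Ereg). For female against male under cisplatin 0 passed (background 0.156%, of which 0.106% higher and 0.05% lower; 0 in DESeq2) and 1, Erbb3 at -0.22 ± 0.10, had an unadjusted p under 0.05. These comparisons share groups of libraries.

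Around the EGF receptors, further pathway genes were measured from lists of 56 genes in all, of which 52 were tested. In males 8 rose and 10 fell, where 13.2% of all genes were higher and 7.54% lower. In females 0 of the 52 passed in edgeR's test (9 at an unadjusted p under 0.05, against 2664 of all 18005 genes), and 3 passed in DESeq2, namely Adam12, Rhbdf2 and Spry4. Among the other ligands and receptors of the EGF family, 1 of 5 tested genes passed in males. It was Egf, made by the thick ascending limb and distal convoluted tubule, with a minimum of 65.7, a median of 229 and a maximum of 580 CPM in male cisplatin libraries, against 258, 1148 and 1652 CPM in male saline libraries. Its log2 fold change was -2.09 ± 0.60 (edgeR adjusted p of 0.0182), beside a fall of 2 of the 6 thick ascending limb markers, of which it is one itself. The ranges of Egf overlapped, since male saline 2 held 258 CPM. In females Egf, at -0.45 ± 0.59 on the log2 scale, did not pass (edgeR adjusted p of 0.751). Erbb2, the partner of ERBB3, averaged 133 ± 18.8 CPM in male cisplatin and 112 ± 10.5 CPM in male saline libraries and did not pass (adjusted p of 0.0631).

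Of 7 genes of ligand shedding, 2 rose and 2 fell in males, where 13.2% of all genes were higher and 7.54% lower. Of all genes 5.93% had male groups that did not overlap, 3.45% of them higher under cisplatin and 2.48% lower. Rhbdf1, which encodes iRhom1, a partner of the sheddase ADAM17, rose by 0.66 ± 0.12 on the log2 scale (edgeR adjusted p of 0.00112), and its 2 male groups did not overlap (112 to 167 CPM under cisplatin, 80.7 to 101 CPM under saline). Adam10, a sheddase gene, rose by 0.51 ± 0.15. Adam12, a metalloprotease gene, fell by 1.70 ± 0.43. Timp3, an inhibitor of ADAM17, fell by 0.88 ± 0.31 (edgeR adjusted p of 0.0438). With the tubule marker score in the model 1 of the 7 passed, and 2 passed with male libraries alone or without male cisplatin replicate 2.

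Feedback inhibitors of the receptors and of ERK signalling fell or did not pass in males, with 3 of 13 lower and 0 higher. Of all genes 20.7% passed in males (7.54% lower, 13.2% higher), and 2.48% were lower without overlap. These shares are the background for this list and for the lists that follow. Spry4, an inhibitor of receptor kinase signalling, was at 6.92 ± 2.44 CPM in male cisplatin and 13.1 ± 2.33 CPM in male saline libraries without overlap (log2 fold change -0.92 ± 0.24, edgeR adjusted p of 0.0105). In females it was at 9.69 ± 1.67 CPM under cisplatin and 18.3 ± 6.95 CPM under saline, with the same log2 fold change of -0.92 ± 0.24 (adjusted p of 0.112). Spred1 (-0.53 ± 0.12) and Socs5 (-0.55 ± 0.16) also fell in males. Of 10 receptor adaptor and turnover genes 1 fell, the ubiquitin ligase gene Nedd4 (-0.38 ± 0.13, edgeR adjusted p of 0.0357). Leaving out single libraries gave 0 to 2 of these 10. Of 8 tested transcripts known to respond to ERK, 2 rose and 1 fell: the transcription factor genes Fos (2.57 ± 0.75) and Myc (0.85 ± 0.24) rose, and the cyclin gene Ccnd1 (-1.84 ± 0.44) fell. Fos ran from 5.25 to 128 CPM in male cisplatin and from 2.59 to 13.4 CPM in male saline libraries. With the tubule marker score in the model 1 of the 13 feedback genes and 0 of these 8 passed, and with the fibroblast marker score 0 genes of any pathway list passed.

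**Figure D5:**
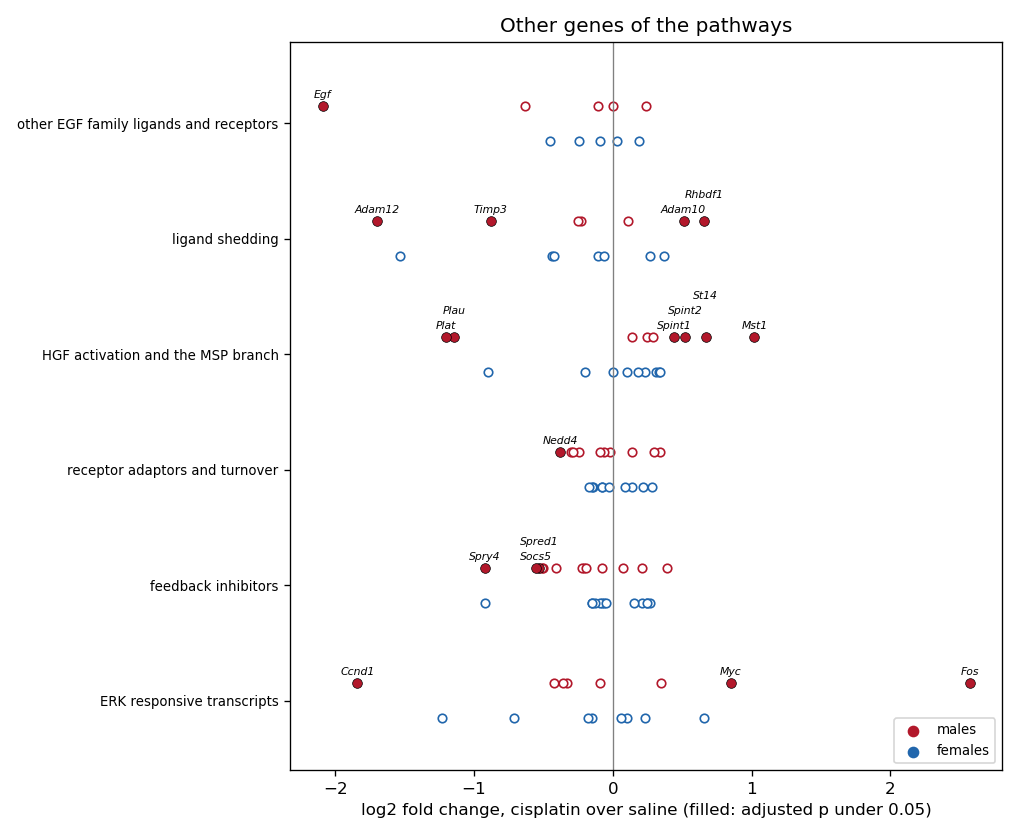
Log2 fold change of cisplatin over saline for each tested gene of the 6 pathway lists, males above females in each row, with filled and named points at an adjusted p under 0.05. The filled points are all in males, from Egf at -2.09 to Fos at 2.57.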

How the data were processed

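The deposited values were whole-number counts per Ensembl gene and library, made by the authors. Per the submitters' processing notes the tools were featureCounts, Subread 2.0.1, Trim Galore 0.6.7 and DESeq2 1.28.1 and the build mm10, with no roles stated. The sources used here give no aligner, annotation release or strand setting. Symbols came from a reference table (52083 of 55416 identifiers), coordinates and exon lengths from GENCODE M21 (GRCm38), and promoters from RefSeq (GRCm38.p6).

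Genes were kept by filterByExpr (minimum count 10), leaving 18005. All 24 libraries entered 1 quasi-likelihood fit in edgeR 4.0.16 (R 4.3.3) with TMM scaling and a term for each group. A gene changed where its Benjamini-Hochberg adjusted p was under 0.05. CPM used TMM-scaled library sizes, and log2 CPM a pseudocount of 0.5. DESeq2 1.42.0 and other scalings, filters, covariates and left-out libraries were tried as alternatives.

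The genes of the set and the lists were chosen with earlier results of these data known. A marker score is a mean log2 CPM over markers, centred on its mean over the libraries in the model. All 10 genes are named. Of each pathway list at most 4 changed genes are named (Spint1, Spint2, Erbb2, Rhbdf2 and Epgn besides, chosen after their values were seen). Of each marker list at most 3 of the most abundant are named (Dcn, Lum and Krt20 besides, also chosen after their values were seen). For each changed gene of the set the 3 genes most like it are named. Within groups, all 61 pairs of libraries differed beyond counting noise (chi-square per gene at least 7.88). A sequence of Hbegf is not reported here.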

Additional observations from a re-analysis of the deposited data

Results flagged for a closer look

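Of 40 sets of values (10 genes in 4 groups), 3 held a library far from the others by Dixon's criterion. Chance alone gives this in about 1 of 20 sets of normally distributed values. That rate does not hold for sets of a few counts, such as those of Areg. Btc was at 35.1 CPM in male saline 6, against 15.9 CPM in the next library, and without that library the log2 fold change of Btc in males was 0.33 (adjusted p of 0.558). Hbegf was at 59.1 CPM in male cisplatin 1, against 44.4 CPM in the next library, and without it the log2 fold change in males was 0.16 (adjusted p of 0.516). Areg was at 0.115 CPM in female saline 3, which is 3 counts, against 0.0418 CPM in the next library.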

How the results depend on the processing

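Over 34 alternatives, of which 33 apply to each sex, Hgf in males kept its direction in all 33 (log2 fold change -2.41 to -1.25) and passed in 32, and Erbb3 (0.27 to 0.47) passed in 31. The exceptions were the covariates. Of the 9 tested genes 2 changed in males, 1 (Hgf) with the tubule marker score and 0 with the fibroblast marker score, a covariate chosen after seeing the data. The male groups did not overlap in the fibroblast marker score. In females 0 changed and 1 (Hgf) did with DESeq2. Leaving out single libraries gave 2 to 3 changed genes in males and 0 in females. With the replicate number as a block Hgf was at -2.23 in males (adjusted p of 0.00160) and -1.08 in females (0.363), and the block changed no call among the 9 genes. It gave 3333 against 3731 changed genes of all in males and 16 against 49 in females, and DESeq2 gave 4364 and 241. In males 1665 genes changed with the tubule marker score, 48 with the fibroblast marker score and 2402 with male libraries alone. In females 85 changed with no filter, 23 with the tubule marker score, 28 with the fibroblast marker score and 20 with female libraries alone. Without 3 libraries (male cisplatin 5, female saline 1 and female saline 6) 32 changed in females. These were picked by name as of divergent composition, not by a cut-off. Male cisplatin 1 and 2 had lower tubule marker scores (-1.515 and -1.377) than any of the 3. Leaving out single libraries gave 2554 (without male cisplatin 3) to 5268 (without male cisplatin 6) in males and 21 (without female cisplatin 4 or 5) to 139 (without female cisplatin 3) in females. Between the sexes DESeq2 gave 58 against 34 under saline and 127 against 28 under cisplatin, the tubule marker score 54 and 60, and the fibroblast marker score 40 and 15. The numbers did not pair the libraries: same-number libraries had median correlations of -0.068 (male cisplatin with male saline) and -0.092 (female cisplatin with female saline), and 0 libraries in either correlated best with their own number. Of the other 4 pairs of groups the highest medians were 0.152 (male cisplatin with female saline, 3 libraries best with their own number) and 0.111 (male saline with female cisplatin, 2 libraries), and no pair of groups had all its same-number correlations above 0.1.

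Directions turned only for values near 0 that never passed. With the tubule marker score Tgfa was at -0.09 in males and -0.06 in females and Nrg1 at -0.02 in females. With the fibroblast marker score Met was at 0.04, Tgfa at -0.08 and Nrg1 at -0.36 in males, and Tgfa at -0.0023 and Nrg1 at -0.13 in females. Nrg1 in females was also at -0.01 with library totals only, -0.00022 with no filter, -0.05 with the replicate block and -0.14 without the 3 libraries. Without them Btc in males was at 0.19. Leaving out single libraries, Btc ran from -0.20 to 0.33 and Nrg1 from -0.10 to 0.26 in males, and in females Met from -0.18 to 0.04, Hbegf from -0.24 to 0.01, Tgfa from -0.0012 to 0.20 and Nrg1 from -0.11 to 0.12. The cause was not tested. Depth limits Hgf (4 counts in the lowest library), Ereg and Areg.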
